A study of Saccharomyces cerevisiae BY4741 with 4 samples.

Results

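The genes nearest the centromeres of Saccharomyces cerevisiae were taken by their systematic names. In these names the letters L and R give the left or right arm of a chromosome, and the number counts genes outward from the centromere. Genes numbered 001 to 010 on any arm, with or without a suffix, were chosen, which gave 302 of the 5219 genes in the table, with 5 to 13 on each of 32 arms. They were set against the 1060 genes numbered 011 to 050. The midpoints of the chosen genes lay 0.632 to 33.4 kb from the centromere, with a median of 9.06 kb, and those of genes 011 to 050 lay 12.1 to 114 kb away, with a median of 59.0 kb. The choice used names alone and no measured level.

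The tested strain, BY4741-spp1Δ in the labels, carried spp1D::KanMX6. The wild-type strain was BY4741, MATa with his3Δ1, leu2Δ0 and ura3Δ0. Both were harvested in log phase at an optical density of 0.6 in YPD, a rich glucose medium, and received Schizosaccharomyces pombe cells at 25% by volume as a spike-in. Chromatin was cut with micrococcal nuclease, and an antibody pulled down histone H3 trimethylated at lysine 4 (H3K4me3) with its DNA. Of 4 libraries, the 2 H3K4me3 libraries, 1 per strain, stand behind the table, which gives the authors' normalised level of each gene. The levels were read as linear. With 1 library per strain no difference between strains has a replicate check and none was tested, and the read depth is unknown. Spreads and intervals below are over genes, which are not replicates.

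H3K4me3 is laid down over the start of transcribed genes by COMPASS, whose catalytic subunit is Set1. Spp1 is a COMPASS subunit with a PHD finger that reads methylated lysine 4 and is needed for full trimethylation; in meiosis it also links H3K4me3 sites to the machinery of DNA breaks. Budding yeast has point centromeres, short DNA elements on which a single specialised nucleosome holds the kinetochore, and it lacks the broad heterochromatin that flanks centromeres in many other organisms. Cohesin, the ring that holds sister chromatids together, is enriched in the chromatin around them. The annotated genes begin close by: the gap between the innermost genes on either side of the centromere was 630 to 2541 bp on the 16 chromosomes, with a median of 984 bp.

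The gene SPP1 itself, on the left arm of chromosome XVI and not among the chosen genes, had a level of 0.0982 in spp1 and 1.89 in wild type, 5.21% of wild type. Both levels were present for 281 of the 302 chosen genes. The other 21 lie on chromosome IX, where none of the 180 genes in the table had a level in spp1. Their wild-type levels ran from 1.41 at SGN1 to 2.39 at DSN1, with a median of 1.92, and these genes enter only the wild-type values. Some neighbours share identical levels in the table and are not separate measurements: YCL001W-A with YCL001W-B, RCR2 with YDR003W-A, and GCN20 with YFR009W-A. NMA2 shares its levels with a gene outside the chosen set.

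In spp1 the chosen genes kept nearly the same share of their wild-type H3K4me3 as genes farther out. Their median level was 0.463 in spp1 and 1.93 in wild type, and the median of the ratios was 25.7% of wild type (log2 -1.96, interval over genes -2.04 to -1.87). For the 996 genes numbered 011 to 050 with both levels, the median was 0.479 in spp1 and 1.98 in wild type, a median ratio of 26.3%. Over all 5038 genes with both levels the median ratio was also 26.3%. The median log2 ratio of the chosen genes minus that of genes 011 to 050 was -0.03, and the median of genes 011 to 050 fell inside the interval of the chosen genes. The SD of single chosen genes was 0.55. The middle 50% of the ratios ran from 21.3% to 32.3% in the chosen genes and from 20.4% to 33.4% in genes 011 to 050.

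The left arm of chromosome IV, YDL, scattered far more than other arms in spp1, so the main results are also given without it. The 272 chosen genes of the other arms had a median level of 0.459 in spp1 and 1.92 in wild type, with a median ratio of 25.5% (log2 -1.97). The 967 genes numbered 011 to 050 on those arms had 0.479 in spp1 and 1.98 in wild type, with a median ratio of 26.3%. Leaving out YDL moved the difference between the groups to -0.04 and the SD of the chosen genes to 0.47, so the medians hardly depended on that arm while the spread did.

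**Figure D1:**
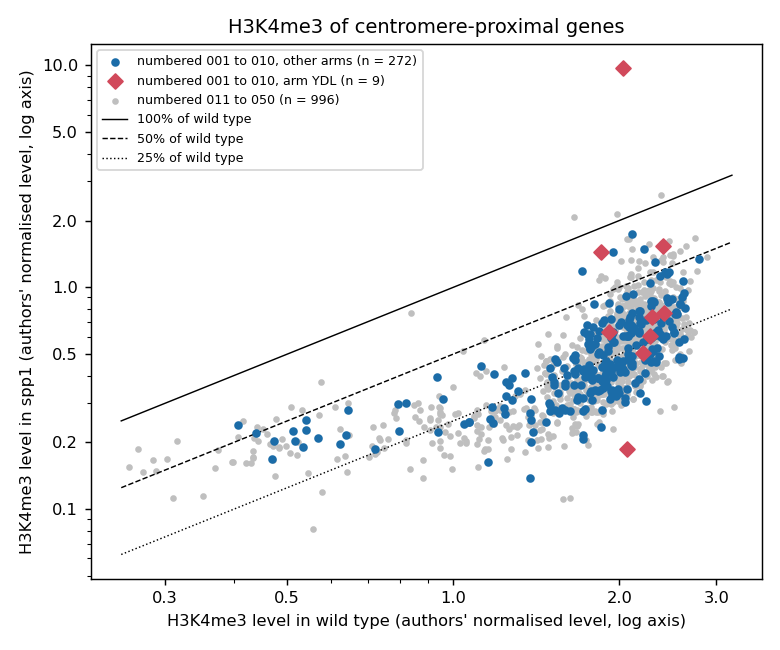
H3K4me3 level of each gene in spp1 (vertical, log axis) against wild type (horizontal, log axis), in the authors' normalised units, for genes 001 to 010 outside YDL (blue), genes 001 to 010 on YDL (red diamonds) and genes 011 to 050 (grey). The lines mark 100%, 50% and 25% of wild type; most blue and grey points share the band around 25%, and a single chosen gene, PTC1 on YDL, lies above the 100% line.

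Counts past fixed folds gave a similar picture. Below 50% of wild type lay 271 of the 281 chosen genes (96.4%), 938 of the 996 genes 011 to 050 (94.2%) and 93.8% of all genes. Below 25% lay 134 chosen genes (47.7%), 447 genes 011 to 050 (44.9%) and 44.6% of all genes. Both shares of the chosen genes were near those of all genes. Without YDL, 265 of 272 chosen genes (97.4%) were below 50%, against 94.5% of genes 011 to 050 and 94.6% of all genes. Below 25% without YDL were 132 chosen genes (48.5%), against 44.9% of genes 011 to 050 and 44.9% of all genes.

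Genes that kept 50% or more of the wild-type level are the remainder of the count below 50%, not a separate result. There were 10 of them (3.56%), against 58 of genes 011 to 050 (5.82%) and 6.17% of all genes. Without YDL there were 7 (2.57%), against 53 (5.48%) and 5.41% of all genes. In a further count cytosolic ribosomal protein genes were left out, of which the chosen genes with both levels hold 2 and genes 011 to 050 hold 24. Whether those genes account for the lower share was not tested. Without YDL and those genes, 6 of 270 chosen genes (2.22%) kept 50% or more, against 31 of 943 genes 011 to 050 (3.29%) and 158 of 4705 in all (3.36%).

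The 10 genes were PTC1, RPT2 and APC11 on YDL, and RPL27A, RLP7, RPN11, RVS161, YML009W-B, CCT8 and CIT3 elsewhere. RPL27A, a protein of the large ribosomal subunit, had 1.74 in spp1 and 2.11 in wild type, 82.3% of wild type (chromosome VIII, 126521 to 127492). RLP7, a ribosome assembly factor, stood at 74.3% of wild type and RPN11, the deubiquitinating subunit of the proteasome lid, at 69.0%. RVS161, an amphiphysin-like protein of endocytosis, had 1.49 in spp1 and 2.21 in wild type, 67.3% (chromosome III, 130745 to 131542). CCT8, a subunit of the cytosolic chaperonin, had 1.30 in spp1 and 2.32 in wild type, 56.2% (chromosome X, 419957 to 421663). Outside YDL each of these genes was still lower in spp1 than in wild type.

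Other well-marked chosen genes stood just under 50%. Among those whose wild-type level reached the all-gene median of 2.01, SPT5, a transcription elongation factor, had 1.17 in spp1 and 2.42 in wild type. RLP24, another assembly factor, had 1.34 in spp1 and 2.79 in wild type (48.1%), the highest wild-type level of the chosen genes. MIX17, a mitochondrial protein, had 1.13 in spp1 and 2.37 in wild type (47.7%). High marking in wild type did not go with one ratio: the proteasome subunit PRE3 had 0.808 in spp1 and 2.63 in wild type (30.7%), while CDH1, an activator of the anaphase-promoting complex, stood at 22.3% with 2.62 in wild type.

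At the low end, SAG1, the alpha-agglutinin of mating, had 0.307 in spp1 and 2.23 in wild type, 13.7% of wild type (chromosome X, 442909 to 444861), the lowest ratio outside YDL among chosen genes that reached that median. TFC3, the largest subunit of the RNA polymerase III factor TFIIIC, followed with 0.304 in spp1 and 2.05 in wild type (14.8%). AIM34 stood at 15.3%, PMI40, a mannose-6-phosphate isomerase, at 15.4%, the peroxisomal protein PEX31 at 16.9% and the prefoldin subunit GIM4 at 17.3%. LRO1, an acyltransferase of triacylglycerol synthesis, had 0.386 in spp1, and the tRNA-modifying enzyme TRM12 had 0.409 in spp1 (18.4%). Their spp1 levels, 0.304 to 0.409, were all below the chosen genes' median of 0.463, which largely follows from picking them by low ratio.

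With lower wild-type levels included, MET3, the ATP sulfurylase of sulfate assimilation, had 0.138 in spp1 and 1.38 in wild type, 9.99% of wild type (chromosome X, 456239 to 457774). That was the lowest ratio of the 3050 right-arm genes with both levels and the lowest spp1 level of the chosen genes.

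The measured gene nearest the centromere on each arm, by distance, was also near the rest. On 30 arms this gene had both levels. Of the 30, 29 lay below 50% of wild type, where 93.8% of all genes lay. Below 25% lay 16 of the 30, against 44.6% of all genes. Their median was 24.8% (24.7% without YDL), and 12 were above the median ratio of all genes. The range ran from 14.5% at NTH2, a trehalase, with 0.201 in spp1 and 1.39 in wild type, to 50.1% at CIT3, a mitochondrial citrate synthase, with 0.438 in wild type. CIT3 combined a low wild-type level with a high ratio, whereas RPL14B, a ribosomal protein gene with 1.17 in spp1 and 2.46 in wild type (47.4%), was well marked in both strains.

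The nearest measured genes on either side of a centromere often differed. On 15 chromosomes both had both levels; the left one had the higher ratio on 10 and the right one on 5, and the ratios differed by 0.971 to 23.8 percentage points, with a median of 7.99. On chromosome III, to the left of CDC10, and on chromosome XV, between IZH2 and the centromere, a further annotated gene lies closer. On chromosome VIII RPL14B stood at 47.4% beside 23.7% at OSH7, an oxysterol-binding protein, the widest gap. On chromosome XVI HAT1, a histone acetyltransferase, stood at 30.6% and CIT3 at 50.1%. On chromosome XV IZH2 stood at 20.2% and RRP6, the nuclear exosome nuclease, at 37.7%. On chromosome I TFC3 stood at 14.8% and NUP60, a nuclear pore protein, at 31.2%. The narrowest gaps were on chromosome III, with 23.2% at YCL001W-B and 22.2% at the septin CDC10, and on chromosome VII, with 21.9% at ERG26, a sterol-synthesis enzyme, and 20.3% at EFM5, a methyltransferase of a translation elongation factor. The size of the gap thus varied widely between chromosomes. Gene pairs elsewhere were not compared, so the gaps are not shown to be particular to centromeres. Over all genes the middle 50% of the ratios ran from 20.8% to 34.1%.

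The remaining nearest genes fell within the same range. On chromosome X PRE3 stood at 30.7% and the vacuolar transporter AVT1 at 21.4%. On chromosome XIII the vacuolar GTPase YPT7 stood at 37.9% and the Polo kinase CDC5 at 27.9%. On chromosome XIV DOM34, a ribosome rescue factor, stood at 39.9% and the citrate synthase CIT1 at 25.3%. The other pairs had 20.6% at ECM15 beside NTH2, 26.6% at RMD1 and 29.7% at NTH1, 24.8% at IRC22 and 18.3% at MNN1, 30.6% at DEG1 and 22.6% at LOC1, 25.2% at MET14 and 21.5% at VPS1, and 23.0% at DNM1 and 24.7% at YLR001C.

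Pooled over arms, the median ratio was slightly lower in the innermost class of genes than in the classes farther out. Without YDL the median was 24.6% of wild type for genes 001 to 005 and 26.1% for genes 006 to 010. It was 26.4% for genes 011 to 020, 26.3% for 021 to 030, 26.5% for 031 to 040 and 26.0% for 041 to 050. The innermost class was thus the lowest, with a median log2 ratio of -2.03 (interval over genes -2.11 to -1.93). The median of genes 011 to 050 together, -1.93, lay at the edge of that interval. The interval leaves out the spread of genes 011 to 050, so it does not decide whether the groups differ. Single arms did not share this: with YDL included, genes 001 to 005 had the higher median ratio on 16 of 30 arms. Number by number, the medians of 001 to 010 ran from 22.7% to 28.4% and those of 011 to 050 from 22.7% to 30.1%. The second range covers 40 numbers and the first 10, so it tends to be wider in any case. The overlap of the ranges therefore does not show that the groups are alike. At the edge itself, also without YDL, the 27 genes numbered 010 had a median of 23.7%, against 26.4% for the 26 genes numbered 011.

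**Figure D2:**
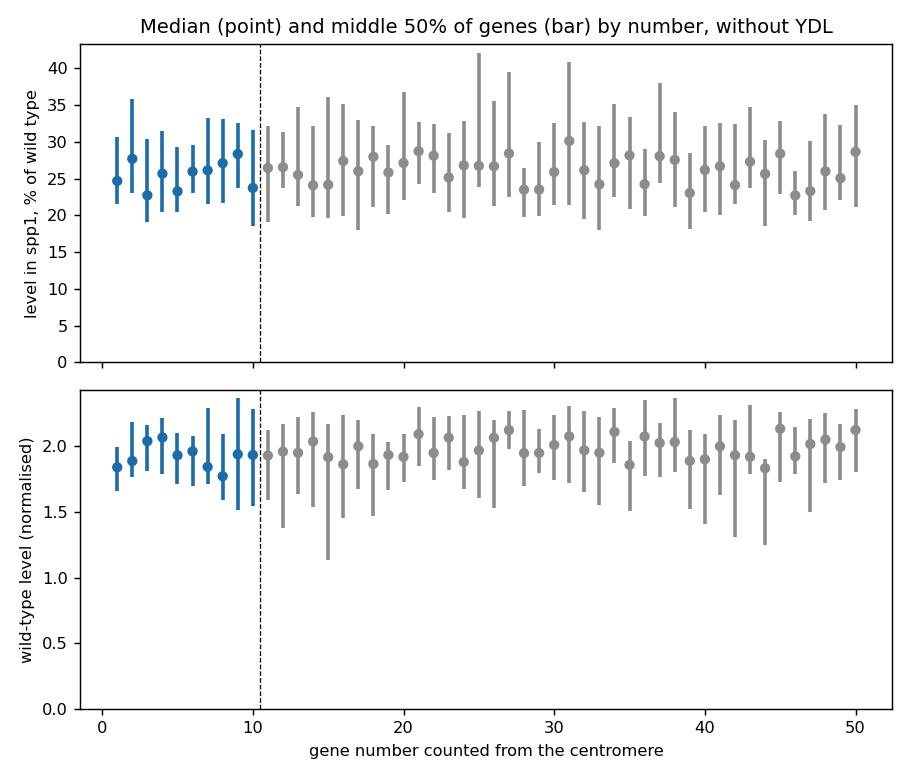
Median over genes of the spp1 level as % of wild type (top) and of the wild-type level in normalised units (bottom) for each gene number from the centromere, without YDL; points are medians and bars the middle 50% of genes, with numbers 001 to 010 in blue and 011 to 050 in grey, split by the dashed line. The blue medians of the ratio run from 22.7% to 28.4% and the grey ones, which are more numerous, from 22.7% to 30.1%.

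Distance gave a pattern much like that of gene number. Without YDL the median was 25.0% for the 38 genes within 2.5 kb of the centromere, 23.6% for the 39 genes at 2.5 to 5 kb and 24.5% for the 68 genes at 5 to 10 kb. It was 26.2% at 10 to 20 kb, 26.2% at 20 to 40 kb, 26.9% at 40 to 60 kb and 26.1% at 60 to 100 kb. Every class within 10 kb was thus lower than every class from 10 to 100 kb. For the 68 genes at 5 to 10 kb the interval of the median log2 ratio was -2.15 to -1.87, which holds the medians of the classes beyond, and the intervals of the classes nearer in are wider. Chosen genes transcribed away from the centromere had 24.9% (140 genes) and those transcribed towards it 26.0% (132 genes). The order was reversed in genes 011 to 050, also without YDL, with 26.5% away (484 genes) and 26.0% towards (483 genes). Over all arms the medians of the log2 ratio of the chosen genes, towards minus away, differed by 0.06. Among chosen genes that reached the median wild-type level they differed by 0.19.

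By arm, genes 001 to 010 had a higher median ratio than genes 011 to 050 on 13 of the 30 arms with both levels and a lower one on 17 (12 and 17 without YDL). Arm medians of the log2 ratio spanned -2.39 to -1.57 in the chosen genes, and the differences from the same arm's genes 011 to 050 spanned -0.65 on YER to 0.49 on YHL, with 18 of 30 within 0.25 of zero. On 15 chromosomes both arms were higher on 3, namely VI, VIII and X, both lower on 5 and split on 7. The arms therefore went both ways.

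**Figure D3:**
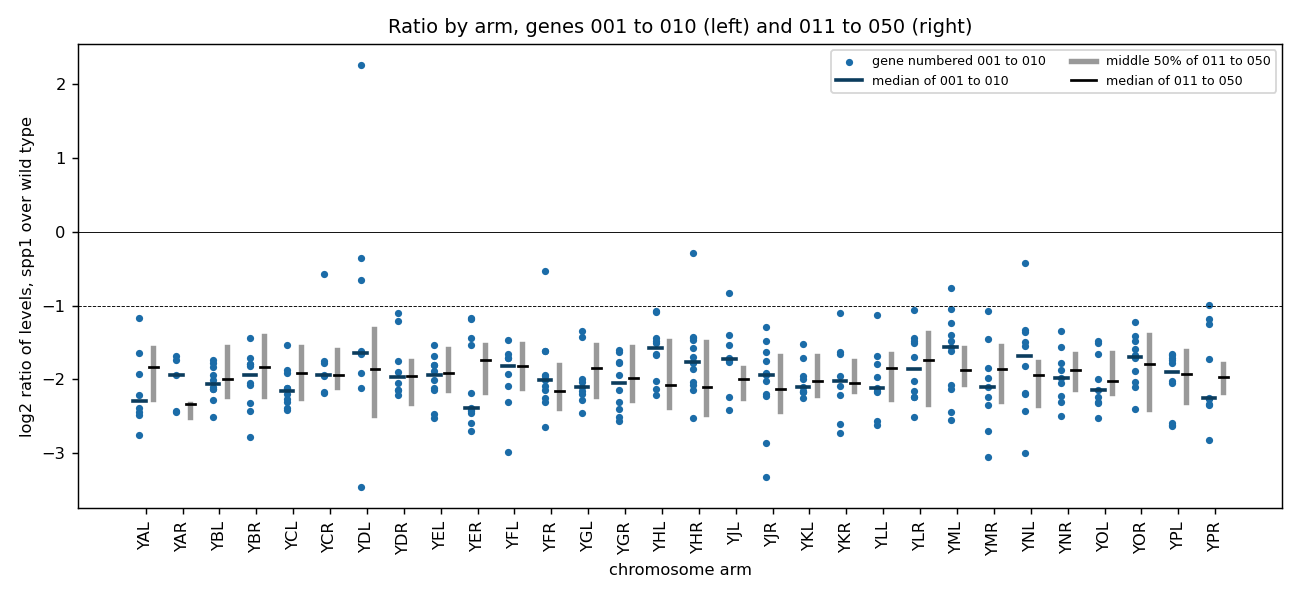
log2 ratio of the H3K4me3 level, spp1 over wild type, by chromosome arm: blue points are genes 001 to 010 with their median (dark bar), and beside them the grey bar is the middle 50% of genes 011 to 050 with its median (black). The solid and dashed lines mark a log2 ratio of 0 and of -1; the YER median lies lowest, at -2.39, and YDL holds the single point above 0.

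The right arm of chromosome V, YER, had the largest downward difference: a median log2 ratio of -2.39 (19.1% of wild type) for its 11 chosen genes, against -1.73 for its 42 genes 011 to 050. PMI40 had 0.316 in spp1 and 2.05 in wild type, and MNN1, a mannosyltransferase, had 0.279 in spp1 and 1.53 in wild type (18.3%). FMP52 (16.6%), YER010C (18.6%), the apyrase YND1 (18.7%), PAC2 (19.1%) and the exocyst subunit SEC3 (22.1%) were also low. The other 4 genes of the arm were higher, with NTF2, a nuclear transport factor, at 34.5%, TMA20 at 37.1%, and the ribosome assembly factors NOP16 at 44.2% and NUG1 at 44.3%. NOP16 had 0.935 in spp1 and 2.12 in wild type, and PMI40 had a like wild-type level. The genes of YER thus formed a low group of 7 and a higher group of 4 with nothing between 22.1% and 34.5%.

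The left arm of chromosome VIII, YHL, had the largest upward difference, with a median of 33.5% for its 10 chosen genes, against 23.8% for its 28 genes 011 to 050. RPL14B stood at 47.4%, and STE20, a kinase of the mating pathway, had 1.14 in spp1 and 2.44 in wild type (46.9%). HSE1, an endosomal sorting protein, stood at 37.1%, YHL006W-A at 35.9%, YHL008C at 35.2%, the mitochondrial ribosomal protein MRP4 at 31.8% and the ceramide synthase LAG1 at 31.6%. SHU1 (24.7%), the transcription factor YAP3 (22.8%) and ETP1 (21.6%) were below the median ratio of all genes. YAL was lower near the centromere, with 20.4% against 28.2%, and YHR was higher, with 29.4% against 23.2%. Outside YDL the SD of the log2 ratio among the chosen genes of an arm was 0.24 to 0.71.

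In wild type alone the median level of the chosen genes was slightly lower than that of the rest. Over all 302 the median wild-type level was 1.92, against 1.97 for the 1060 genes 011 to 050 (also 1.92 and 1.97 without YDL). It was 2.02 for genes 051 and higher and 2.01 for all genes. The levels ran from 0.407 to 2.79 in the chosen genes and from 0.258 to 2.88 in genes 011 to 050. At or above the median of all genes, 2.01, were 126 chosen genes (41.7%), against 497 genes 011 to 050 (46.9%); without YDL the shares were 40.6% and 47.0%. At the other end, 23 chosen genes (7.62%) were under the lowest 10th percentile of all genes, 1.09, against 123 of genes 011 to 050 (11.6%); without YDL the shares were 7.85% and 11.6%. Smaller shares of the chosen genes were thus found both above the median and at the very low end. By arm, the wild-type median of the chosen genes was higher than that of genes 011 to 050 on 16 of 32 arms (15 of 31 without YDL); on YPR, the lowest arm, it was 1.18 against 1.97.

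The 5 lowest wild-type levels belonged to YML009W-B, with 0.241 in spp1 and 0.407 in wild type, CIT3, TIR2, a cell-wall mannoprotein with 0.168 in spp1 and 0.470 in wild type, YSP3, with 0.203 in spp1 and 0.474 in wild type, and PDH1, with 0.225 in spp1 and 0.512 in wild type. Over the low-level chosen genes the median ratio was 36.7%, against 32.3% for low-level genes 011 to 050, both above the 26.3% of all genes. Picking genes by a low wild-type level, the denominator of the ratio, by itself favours a high ratio. The spp1 levels of the low-level chosen genes ran from 0.168 to 0.395. YML009W-B and CIT3 were the 2 of these genes that passed 50%.

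On YDL the chosen genes split by position. The 5 genes next to the centromere ran from 23.0% to 32.7% of wild type: RMD1, with 0.604 in spp1 and 2.28 in wild type, NHP10, an INO80 complex subunit, with 0.627 in spp1 and 1.92 in wild type, MCD1, the cohesin kleisin, with 0.508 in spp1 and 2.20 in wild type, ATP16 with 0.731 in spp1 and 2.29 in wild type, and the Mediator subunit MED2 with 0.765 in spp1 and 2.41 in wild type. Their SD on the log2 scale was 0.22, within the 0.092 to 0.73 of genes 001 to 005 on the 29 other arms. The next 4 genes had an SD of 2.34, against 0.10 to 0.84 for genes 006 to 010 of the other arms. Farther out the arm kept a wide spread, with an SD of 1.05 over genes 011 to 050.

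PTC1, a protein phosphatase, had 9.71 in spp1 and 2.03 in wild type, 478.2% of wild type (chromosome IV, 439909 to 440754), at 9.42 kb from the centromere. That was the highest spp1 level of all 5038 genes; the next, RPL35A, had 7.72, and the highest outside YDL, RPL6A, had 2.08. RPT2, a proteasome ATPase, had 1.53 in spp1 and 2.40 in wild type (63.7%), and APC11, the RING subunit of the anaphase-promoting complex, had 1.45 in spp1 and 1.86 in wild type (78.1%). GRX6, a glutaredoxin of the secretory pathway, had 0.187 in spp1 and 2.06 in wild type, 9.08%, the lowest ratio of all chosen genes (chromosome IV, 432330 to 433025). The wild-type levels of these 4 genes were ordinary, between 1.86 and 2.40, so the spread was in the spp1 column.

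**Figure D4:**
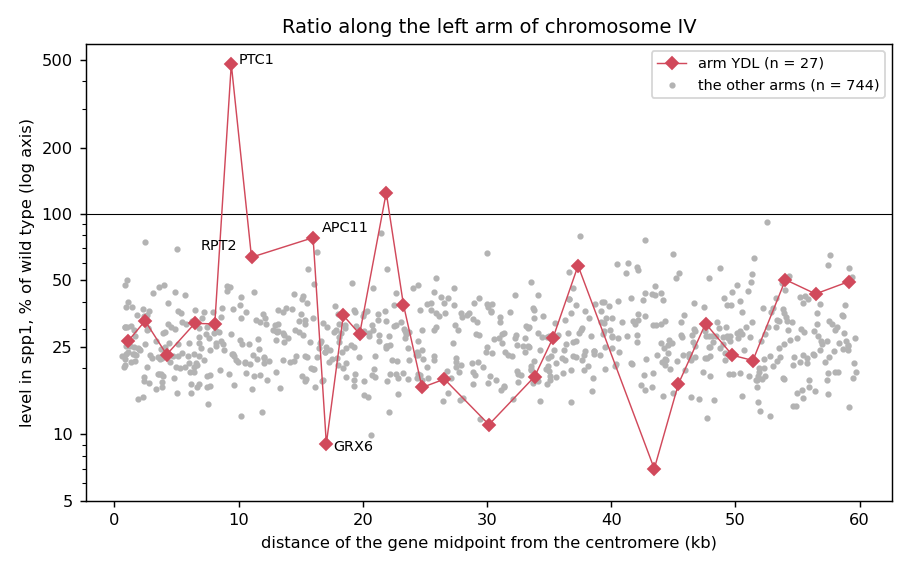
Level in spp1 as % of wild type (log axis) against distance of the gene midpoint from the centromere in kb, for the genes of arm YDL (red, joined in order) and of all other arms (grey). The 5 YDL genes nearest the centromere lie at 23.0% to 32.7%, within the grey cloud. Of the other chosen YDL genes, PTC1 at 478.2% lies far above the highest grey point, 91.7%. GRX6 at 9.08% lies just under the lowest grey point, 9.99%, and RPT2 and APC11 lie within the grey range.

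Grouped by what the proteins do, 169 of the 302 chosen genes fell into 8 role lists, and the list medians ran from 23.1% to 64.9%. The median was 35.7% for ribosome assembly and translation genes, with 16 of 22 above the median ratio of all genes, 26.3%, and 6 below. None of them lies on YDL. Their median log2 ratio minus that of all genes was 0.44, but 0.16 when the lists and all genes were kept to those that reached the median wild-type level. They ran from EFM5 at 20.3% to RLP7 at 74.3%. EFB1, a translation elongation factor, had 0.851 in spp1 and 1.91 in wild type, and SUI2, a subunit of initiation factor eIF2, had 1.07 in spp1 and 2.61 in wild type. The 2 ribosomal protein genes, RPL27A and RPL14B, were both above the median of all genes.

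Genes of chromosome segregation, replication, repair and the cell cycle lay lower. Their median was 23.1% of wild type, with 3 of 18 above the median ratio of all genes and 15 below. The highest was APC11 on YDL; without YDL 2 of 16 were above, and the highest was the helicase CHL1 at 31.8%. The cohesin subunit SMC1 had 0.377 in spp1 and 1.86 in wild type (20.2%), MCD1 stood at 23.0% and TOF2, the lowest, at 15.1%. Both cohesin genes therefore lay below the median of all genes.

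The other lists were closer to all genes. Among genes that reached the median wild-type level this held for all but metabolism, whose median log2 ratio minus that of all genes was then -0.39, against -0.07 with no floor; for mitochondrial proteins it was 0.13, against -0.04 with no floor. Transcription and chromatin genes had a median of 27.4% with 20 above and 19 below the median ratio of all genes (26.0% with 18 above and 19 below without YDL). The core histone genes HTA2 (0.373 in spp1 and 1.25 in wild type), HTB2 (0.369 in spp1 and 1.59 in wild type), HHF1 (0.309 in spp1 and 1.28 in wild type) and HHT1 (0.222 in spp1 and 0.936 in wild type) had low wild-type levels and ratios of 23.2% to 29.9%. SWD1, itself a COMPASS subunit, had 0.482 in spp1 and 2.61 in wild type (18.5%), the histone acetyltransferase RTT109 stood at 16.4%, and SIN3, of the Rpd3 deacetylase complexes, at 36.0%.

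Membrane traffic and nuclear pore genes had a median of 29.0% with 14 of 25 above the median ratio of all genes, from VPS8 at 19.1% to RVS161. Mitochondrial proteins had 25.5% with 10 of 22 above (25.3% with 9 of 21 without YDL), from QCR10 at 17.4% to PAM18 at 35.1%. Proteasome, ubiquitin and chaperone genes had 25.4% with 6 of 14 above (24.9% with 5 of 13 without YDL), from BLM10 at 12.7% to RPN11 with 1.18 in spp1 and 1.71 in wild type. Metabolic genes had 25.0% with 11 of 27 above and none on YDL, from MET3 at 9.99% to CIT3 at 50.1%; the proton pump PMA1 had 0.440 in spp1 and 1.12 in wild type (39.3%).

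**Figure D5:**
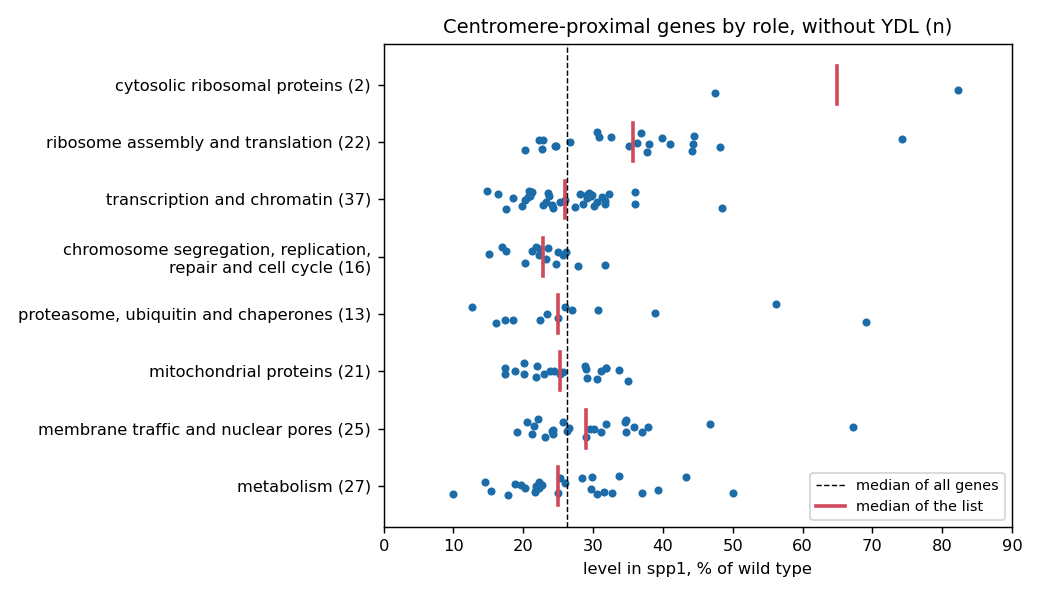
Level in spp1 as % of wild type for chosen genes outside YDL, by role list, with the number of genes in brackets; points are genes (shifted vertically at random), red bars are list medians and the dashed line is the median of all genes, 26.3%. Ribosome assembly and translation genes lie mostly right of the line and segregation, replication, repair and cell cycle genes mostly left of it.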

How the data were processed

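H3K4me3 ChIP-seq of 1 spp1 and 1 wild-type culture was used. The authors deposited a normalised H3K4me3 signal per gene for each strain, per the file headers, in 1 table, and the series text ties comparability to the spike-in. Bowtie2, SAMtools and bedtools with sacCer3 and ASM294v2 were used, per the submitters' processing notes. Tool versions, and the way reads became levels, were not given in the sources used here. A wild-type input, and a further spp1 library titled without an assay, were not analysed here.

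From the deposited signal the log2 ratio of spp1 to wild type was computed with no pseudocount and no filter. Symbols and 1-based coordinates come from the RefSeq R64 annotation, which matched 298 of the 302 chosen genes. A centromere was placed midway between the innermost annotated genes. Intervals are 95% order-statistic intervals of a median over genes. Named genes were the lowest-numbered on each arm (in the text the nearest by distance, which differs on YCL), every YDL member, and the extremes of ratio, wild-type level and each role list; MET3, the genes past 50%, and the YER, YHL and histone genes, EFB1, SUI2, SMC1, SWD1, RTT109, SIN3 and PMA1 were added after their values were seen. The chosen genes and lists were picked with earlier results of these data known. Summaries were checked on simulated data. Python 3.11.15, pandas 2.3.3 and numpy 2.4.6 were used.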

Additional observations from a re-analysis of the deposited data

How the results depend on the processing

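The difference in median log2 ratio between genes 001 to 010 and genes 011 to 050, -0.03, was negative under 16 and positive under 4 of 20 alternatives that could move it. These alternatives overlap and use the same libraries, so the tally is not a set of independent checks. The difference was -0.08 for genes 001 to 005 and 0.02 with genes under the median wild-type level left out. It ran from -0.05 (without YHR) to -0.02 (without YGL) when 1 arm was left out, an alternative added after seeing the data. With genes cut into 5 equal classes of wild-type level, also added later, its sign was mixed. It was 0.05 in class 1, 0.14 in class 2, -0.21 in class 3, 0.03 in class 4 and -0.01 in class 5. With a pseudocount of 0.201 the median log2 ratio was -1.58, with 90.4% of chosen genes below 50% and 7.47% below 25%. Shares of other genes under this and the following settings are not given here. The shares of chosen genes therefore cannot be set against those of all genes above. With the floor at the median wild-type level the median log2 ratio of the chosen genes was -1.81 and 38.7% were below 25%. The difference in wild-type median was then 0.013, and against all genes from 011 outward, with no floor, it was -0.093. Scaling each column to its own total moved the median log2 ratio of all genes by 1.76 to -0.17. That of the chosen genes moved to -0.20, with 2.85% of them below 50% and 0 below 25%. The ratios, the shares past a fixed fold and gaps in percentage points thus depend on the authors' scaling. Differences of log2 ratios between groups of genes do not change under a common factor, since every log2 ratio then shifts alike. With the floor at the median wild-type level the difference from all genes was -0.39 for the metabolic list (-0.07 with no floor), 0.16 for ribosome assembly and translation (0.44), 0.03 for membrane traffic and nuclear pores (0.14) and 0.13 for mitochondrial proteins (-0.04), and the strand difference was 0.19 (0.06). Depth is unknown, so precision per gene cannot be given. No paired analysis was possible because each strain has 1 H3K4me3 library.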
